A study of Rattus norvegicus with 12 samples.

Results

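The genes described here are complement and coagulation factors, the serine proteases, cofactors and regulators of plasma that clear microbes and form or dissolve clots. They were taken as a list of 47 rat genes by name, of which 37 are made mainly by hepatocytes and 10 mainly by other cells near the place where they act. A gene counted as measured where the array annotation gave a probe set its symbol and no other, and 41 of the 47 passed, 31 of them hepatocyte-made and 10 locally made, out of 14217 genes measured in this way. C2, Cfb and Kng1 had probe sets shared with other symbols, F7, F11 and F13b had no probe set under their name, and these 6 genes are not reported further. The arrays measured total RNA from small pieces of liver and renal cortex of 6 male rats, labelled F-344 (Wistar-derived), aged 7 to 9 weeks and weighing 190 to 240 g. Rats of the TCE group received trichloroethylene, a chlorinated solvent, by mouth in corn oil for 3 days at 16 mg/kg/day in 5 ml/kg. Control rats received the corn oil alone, and tissue was taken 24 hours after the last dose. The 4 groups were therefore TCE liver, control liver, TCE renal cortex and control renal cortex, with 3 arrays each, 1 per rat.

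Complement is a cascade that can be started by antibody (classical pathway, through C1q, C1r and C1s), by sugars on microbes (lectin pathway, through the mannose-binding lectins and the MASP proteases) or by spontaneous turnover of C3 (alternative pathway). The branches meet at C3 and end in a pore built from C5b, C6, C7, C8 and C9. Coagulation is started by tissue factor on cells outside the vessel, is amplified through the factors VIII, IX and XI, and ends with thrombin (from F2) cutting fibrinogen to fibrin. Thrombomodulin, protein C and protein S limit it, and plasmin dissolves the clot. Hepatocytes secrete most of these proteins, whereas C1q and properdin come largely from macrophages and other leukocytes, factor D from fat, and von Willebrand factor, factor VIII and thrombomodulin from endothelium.

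A promoter window, from 250 bases before to 50 bases after the gene start, was found in RefSeq (rat assembly GRCr8) for 30 of the 41 measured genes. DNA motifs bound by 3 kinds of liver transcription factor were searched on both strands: GTTAAT, the half-site of HNF1, TTGCNNAA, a site of the C/EBP family, and CAAAGTCCA, a site of HNF4. The HNF1 half-site lay in 9 of 25 hepatocyte-made genes with a window (36.0%), in 0 of 5 locally made genes and in 7.37% of 27457 windows of the genome. The C/EBP letters lay in 10 of 25 (40%), in 1 of 5 (20.0%) and in 10.5% of all windows, and the HNF4 letters in 0 of 25, 0 of 5 and 0.375%. A match describes these letters and is no proof of a bound site. The gene start is the one of the RefSeq promoter table. It was the outer 5′ end of the gene in the RefSeq gene table for 20 of the 30 genes, and for the other 10, among them Fgg (by 154 bases) and Proc (by 120 bases), it lay inside the annotated gene. The windows below run from base -150 to base -1 before that start on the gene's own strand, and capitals mark matches. They are shown because the 3 fibrinogen chain genes are neighbours that did not carry the same matches, because F2 (prothrombin) and Proc (protein C) carried the half-site at the same distance from the start used here, because Plg (plasminogen) was among the genes with tissue differences over 12 log2 units in control rats, and because C1qa stands for the locally made genes.
Fga: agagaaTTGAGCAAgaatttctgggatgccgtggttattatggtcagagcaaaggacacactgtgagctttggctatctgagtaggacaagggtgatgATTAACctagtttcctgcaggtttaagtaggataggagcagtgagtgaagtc
Fgb: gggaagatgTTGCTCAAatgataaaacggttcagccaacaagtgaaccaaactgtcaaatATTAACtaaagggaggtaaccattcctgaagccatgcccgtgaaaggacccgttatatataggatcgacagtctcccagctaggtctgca
Fgg: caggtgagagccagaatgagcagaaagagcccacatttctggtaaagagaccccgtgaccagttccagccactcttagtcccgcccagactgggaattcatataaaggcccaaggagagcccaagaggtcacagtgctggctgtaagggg
F2: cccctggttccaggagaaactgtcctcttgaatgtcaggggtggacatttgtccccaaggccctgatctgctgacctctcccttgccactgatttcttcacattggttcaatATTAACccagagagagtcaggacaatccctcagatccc
Proc: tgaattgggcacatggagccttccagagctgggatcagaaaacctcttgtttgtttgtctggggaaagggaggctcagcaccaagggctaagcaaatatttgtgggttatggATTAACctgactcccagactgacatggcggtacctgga
Plg: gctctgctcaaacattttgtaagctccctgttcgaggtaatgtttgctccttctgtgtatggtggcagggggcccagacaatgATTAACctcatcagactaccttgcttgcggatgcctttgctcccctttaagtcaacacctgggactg
C1qa: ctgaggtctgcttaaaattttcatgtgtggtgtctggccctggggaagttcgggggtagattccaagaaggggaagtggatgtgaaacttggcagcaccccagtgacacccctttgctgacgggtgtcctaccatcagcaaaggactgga
Fga lies at chr2:170672019-170672168 on the plus strand, Fgb at chr2:170700876-170701025 on the minus strand and Fgg at chr2:170652933-170653082 on the plus strand. F2 lies at chr3:98065247-98065396, Proc at chr18:24048942-24049091, Plg at chr1:50915407-50915556 and C1qa at chr5:154419934-154420083, all on the minus strand. Fga had the half-site at -52 to -47 and the C/EBP letters at -144 to -137, and Fgb had them at -90 to -85 and -141 to -134. Fgg, which lies beside Fga, held neither in a window that lies inside the annotated gene, although all 3 chains had large tissue differences (given further on). F2 and Proc each had the half-site at -38 to -33, that of Proc inside the annotated gene, and Plg had it at -67 to -62. No match was found in the window of C1qa.

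Marker genes were compared with the tissue labels first. All 13 hepatocyte markers tested were higher in liver than in renal cortex of control rats, and 9 of 10 proximal tubule markers were lower (limma, adjusted p under 0.05). Values are deposited log2 levels, so a difference of 1 is a 2-fold change, and they lay between 2.17 and 16.5. Array medians were 3.51 to 3.54 in liver and 3.88 to 3.96 in renal cortex, and every fold between the tissues therefore depends on the scaling of the arrays. In whole tissue, fewer cells of a type and less RNA per cell cannot be told apart. The number of arrays, 3 per group, limits the precision of every value.

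The hepatocyte-made factors were almost all far higher in liver than in renal cortex. In control rats 30 of the 31 were called higher in liver and 1 lower, where 29.7% of all 10654 genes tested were called higher and 38.9% lower (limma, adjusted p under 0.05). Their median difference was 10.17 log2 units, beside -0.10 for all genes tested. In TCE rats, which this comparison did not use, 30 of 31 were called higher and 0 lower, against 30.8% and 36.8% of 10642 genes, with a median of 10.34 beside -0.05. With renal cortex levels under the filter raised to it, the medians were 10.17 in control and 10.26 in TCE rats. If each array was centred on its own median, the tissue differences shifted up by 0.41 in control rats and by 0.38 in TCE rats. Of all genes called between the tissues of control rats, 43.3% were higher in liver as deposited, 65% after centring and 51% after a new quantile normalization (45.6%, 65.8% and 52.5% in TCE rats).

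**Figure D1:**
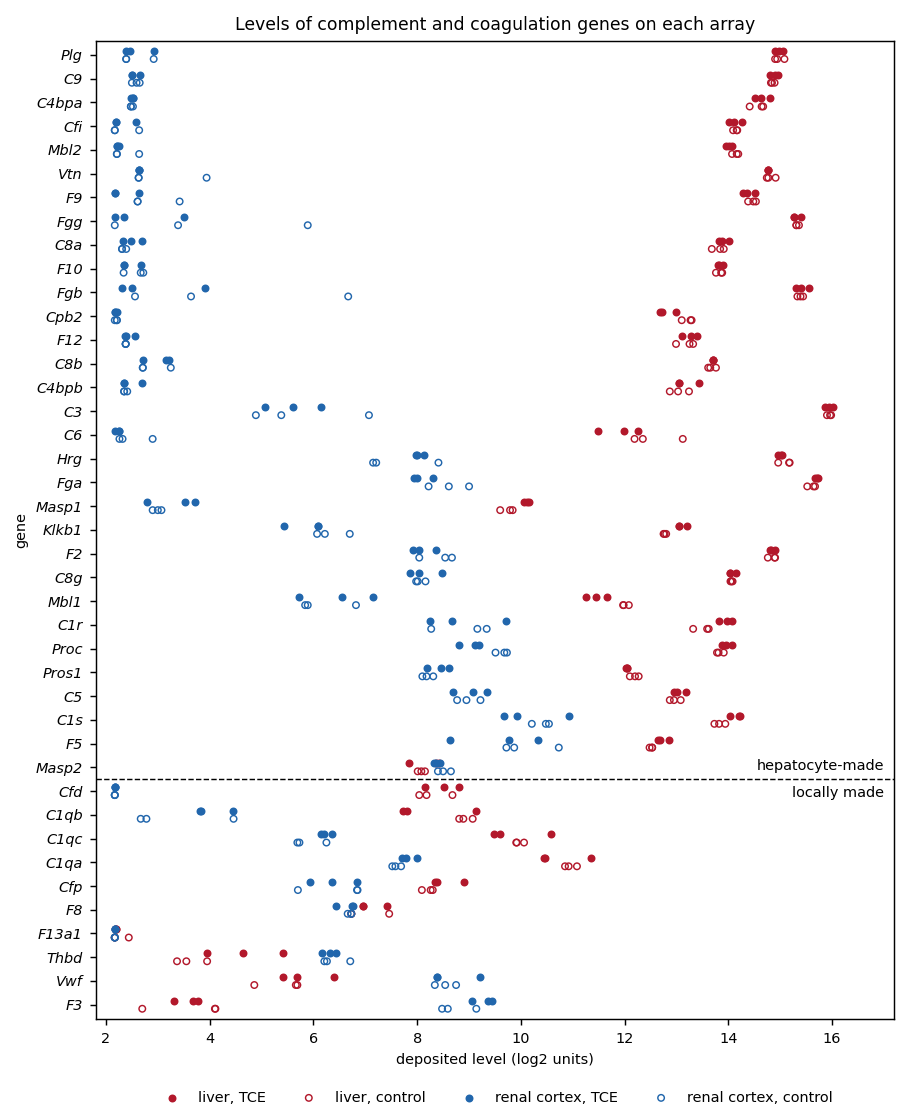
Deposited log2 level of the 41 measured genes (rows) on each of the 12 arrays (points), liver in red and renal cortex in blue, filled for TCE rats and open for control rats. Within each class genes are placed by the fitted liver minus renal cortex difference in control rats, an order not read for genes near the lowest values in renal cortex, from Plg at 12.41 to Masp2 at -0.44 above the dashed line and from Cfd at 6.13 to F3 at -5.10 below it.

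Among the fibrin and fibrinolysis genes, Plg had 14.90, 14.97 and 15.05 log2 units in TCE livers and 14.94, 15.08 and 14.90 in control livers. In renal cortex it had 2.92, 2.47 and 2.39 in TCE rats and 2.39, 2.92 and 2.39 in control rats. The 2 tissues did not approach each other on any array, and the difference in control rats was 12.41 ± 0.17 (SE, adjusted p = 7.85e-08). Cpb2, the carboxypeptidase that protects fibrin from plasmin, was at least 1630-fold higher in control liver than in control renal cortex, where it lay near the lowest values of the arrays. Hrg, histidine-rich glycoprotein, differed by 7.52 ± 0.35 and kept a clear signal in renal cortex. F13a1, the A chain of the fibrin-stabilising factor XIII, was near the lowest values on all 12 arrays, at most 2.44, and was not tested.

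The complement genes gave the same picture, with a few that kept a signal in kidney. C9, the last piece of the pore, differed by 12.27 ± 0.07 in control rats (adjusted p = 1.44e-08). C4bpa, which restrains the classical pathway, was at least 4170-fold higher in liver, and Cfi, the protease that inactivates C3b, and Mbl2, a mannose-binding lectin, each at least 3080-fold. The second probe set of Mbl2 gave a smaller difference, 8.97 log2 units in control rats, with 2.51 on all 6 renal cortex arrays. Vtn, vitronectin, which blocks the pore, differed by 11.74 ± 0.37. Because several of these genes lay near the lowest values in renal cortex, the order of their differences carries no information. C9 and Plg averaged 2.58 and 2.57 in control renal cortex, just above the filter of 2.55. Vtn read 2.63 on every renal cortex array except control replicate 2, at 3.94. The differences of these 3 genes are therefore also read as lower bounds, whatever their SE. In TCE rats the 6 largest differences, whose order is likewise not read, included Fgg at 12.63 ± 0.36, Fgb at 12.51 ± 0.43, Plg at 12.38 ± 0.16, C9 at 12.33 ± 0.08 and Vtn at 12.13 ± 0.06. The other was C4bpa, near the lowest values in TCE renal cortex and at least 4430-fold higher in TCE liver.

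The smallest differences among the hepatocyte-made genes belonged to genes above the array median in renal cortex. A higher renal cortex level makes the difference smaller by itself. Of the 31, 14 lay above the array median on all 6 renal cortex arrays, 14 below it on all 6, and 3 (Fgb, Fgg and Vtn) above it on 1 array. The first 14 were C1r, C1s, C3, C5, C8g, Masp2, Mbl1, F2, F5, Fga, Proc, Pros1, Klkb1 and Hrg. Their differences in control rats ran from -0.44 to 10.17, and those of the 14 below the median from 6.75 to 12.41. Not all of the first 14 were steady in renal cortex: C3 ran from 4.89 to 7.07 there and F5 from 8.64 to 10.73. F5, the cofactor of factor Xa, had 9.77, 8.64 and 10.32 in TCE renal cortex and 10.73, 9.72 and 9.87 in control renal cortex, and was 5.31-fold higher in control liver than in control renal cortex (2.41 ± 0.27, adjusted p = 0.000465). C1s, the second protease of the C1 complex, differed by 3.42 ± 0.12, C5 by 3.98 ± 0.14, Pros1 (protein S) by 3.99 ± 0.09, Proc by 4.20 ± 0.09 and C1r by 4.59 ± 0.29. Fga, the A-alpha chain of fibrinogen, differed by 7.00 ± 0.20, whereas its second probe set gave 9.80, so how much fibrinogen signal the kidney holds depends on the probe set.

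Masp2, the protease of the lectin pathway, was the exception by the probe set the rule picked. It had 8.36, 8.42 and 7.84 in TCE livers and 8.15, 8.08 and 8.01 in control livers, against 8.32, 8.44 and 8.36 in TCE renal cortex and 8.65, 8.40 and 8.50 in control renal cortex. The difference was -0.44 ± 0.09 in control rats (adjusted p = 0.00691) and -0.16 ± 0.17 in TCE rats (adjusted p = 0.412). Its other 2 probe sets pointed the other way, at 10.02 and 9.61 in control rats and 9.46 and 9.00 in TCE rats, and after centring the arrays the first difference was -0.03 and the call was lost. The direction for Masp2 is therefore not settled by these arrays.

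The locally made factors held members higher and members lower in liver. In control rats 5 of the 9 tested were called higher in liver (Cfd, C1qb, C1qc, C1qa and Cfp) and 3 lower (F3, Vwf and Thbd), beside 29.7% of all genes called higher and 38.9% lower, and the same 5 and 3 were called in TCE rats, beside 30.8% and 36.8%. The share called lower lies near the background and is not read as a result about these genes. Their median difference was 1.75 in control and 2.17 in TCE rats. F8, the cofactor that binds von Willebrand factor, was not called, at 0.27 ± 0.21 in control rats (adjusted p = 0.301) and 0.46 ± 0.17 in TCE rats (adjusted p = 0.0528), but became called in both after centring the arrays. Its second probe set gave -0.14 in control and 0.17 in TCE rats.

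C1q, the recognition molecule of the classical pathway, is built from the chains of 3 neighbouring genes, and all 3 were higher in liver. C1qa had 10.46, 11.36 and 10.45 in TCE livers and 10.92, 10.85 and 11.08 in control livers, against 7.70, 7.79 and 7.99 in TCE renal cortex and 7.58, 7.69 and 7.52 in control renal cortex. The difference in control rats was 3.35 ± 0.09 for C1qa (adjusted p = 1.22e-06), 4.08 ± 0.17 for C1qc and 5.62 ± 0.49 for C1qb. Cfp, properdin, the stabiliser of the alternative pathway convertase, differed by 1.75 ± 0.33, and its second probe set by 4.02. Of 10 macrophage markers 9 were called higher in liver of control rats too, with a mean log2 level of 9.59 ± 0.165 in liver and 5.58 ± 0.0536 in renal cortex (SD, n = 3 each). Their summed level, on the log2 scale, differed far less, by 0.53, from 13.56 to 13.80 in control liver and from 13.04 to 13.31 in control renal cortex. Lyz2, the 1 marker called lower, had 12.36, 11.88 and 11.81 in control liver and 13.18, 12.89 and 12.98 in control renal cortex. The part of these markers in the C1q difference was not tested.

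Cfd, factor D of the alternative pathway, is known as a product of fat cells, yet it had 8.51, 8.80 and 8.15 in TCE livers and 8.68, 8.18 and 8.04 in control livers and sat at the lowest value, 2.17, on all 6 renal cortex arrays. That was at least 53.9-fold in control rats. Of the 6 fat cell markers with a probe set, Adipoq, Plin1 and Lep were at most 2.38 on the liver arrays, Fabp4 ran from 2.69 to 5.79, Lpl from 4.03 to 5.40 and Cidec from 10.45 to 11.01. On the renal cortex arrays Fabp4 ran from 5.33 to 8.94, Lpl from 9.27 to 11.19, Adipoq from 2.33 to 3.31 and Cidec from 8.73 to 9.74. The mean level of the 6 markers was 4.37 in control liver and 5.85 in control renal cortex, and 4.14 and 5.64 in TCE rats (n = 3 each, exact permutation p = 0.1 for both). Their summed level, on the log2 scale, ran from 10.50 to 10.86 in TCE livers and from 10.63 to 11.07 in control livers, against 10.43 to 11.44 in TCE and 10.86 to 11.77 in control renal cortex. Their part in the level of Cfd was not tested.

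Tissue factor, von Willebrand factor and thrombomodulin were lower in liver, unlike F8. F3, tissue factor, the starter of coagulation, had 3.68, 3.32 and 3.78 in TCE livers and 4.11, 2.70 and 4.10 in control livers, against 9.45, 9.06 and 9.37 in TCE renal cortex and 8.48, 9.14 and 8.59 in control renal cortex. It was 34.3-fold lower in liver of control rats (-5.10 ± 0.43, adjusted p = 0.000129). Vwf, the adhesive carrier of factor VIII, differed by -3.14 ± 0.25 and Thbd, thrombomodulin, by -2.77 ± 0.20, with no overlap between the tissues on any array. Of 14 endothelial markers 5 were called higher in liver of control rats, such as Lyve1 (3.89 ± 0.18), and 6 lower, such as Plvap (-3.62 ± 0.28) and Tek (-1.24 ± 0.10). Their mean level was 7.36 ± 0.128 in control liver and 7.28 ± 0.0983 in control renal cortex (SD, n = 3 each, exact permutation p = 0.5, 0.1 being the smallest p that 3 against 3 allows). Their part in the differences of Vwf and Thbd was not tested.

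Other genes of the same systems were mixed. Of 21 other coagulation genes tested in control rats, 11 were called higher and 6 lower in liver, and of 12 other complement genes 7 higher and 3 lower, beside 29.7% of all genes called higher and 38.9% lower. Fgl1, a fibrinogen-like protein, was at least 3270-fold higher in liver (adjusted p = 1.44e-08), and Klk1, tissue kallikrein, which releases kinins, at least 542-fold lower (adjusted p = 2.41e-07). Fcna, a ficolin that starts the lectin pathway, was at least 96.7-fold higher (adjusted p = 2.21e-08) and Colec11, a collectin of the same pathway, at least 300-fold (adjusted p = 9.79e-08). Of 15 acute phase genes 14, and of 11 liver transcription factors 9, were called higher in liver, among the transcription factors Nr5a2, at least 137-fold, and Cebpa, at 4.18 ± 0.21.

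Most hepatocyte-made factors differed little between TCE and control livers. None of the 40 members tested was called, as was none of the 10552 genes tested (0% higher and 0% lower), and the adjusted p was 0.18 at the lowest among members. The median difference over the 31 hepatocyte-made genes was 0.03, as for all genes tested. Of the 31, 23 lay within 0.2 log2 units of 0, a share not compared with that of all genes. The differences ran from -0.64 to 0.44. The largest was C6, with 11.99, 11.49 and 12.26 in TCE livers and 13.12, 12.35 and 12.19 in control livers, which overlapped (-0.64 ± 0.32). Of the 40 members 8 had an unadjusted p under 0.05, 6 higher and 2 lower, beside 14.7% of all genes. In 10 of 40 the 2 groups of livers did not overlap, 6 higher and 4 lower in TCE rats, beside 20.5% of all genes. Both counts lie close to the background and are not read as a result about these genes.

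The fibrinogen chains had nearly the same level in both groups of livers. Fgb had 15.31, 15.39 and 15.56 in TCE livers and 15.44, 15.39 and 15.33 in control livers, a difference of 0.03 ± 0.09, with Fga at 0.09 ± 0.07 and Fgg at -0.03 ± 0.07. C3, the meeting point of the complement branches, differed by 0.00 ± 0.07, F2 by -0.01 ± 0.07, F10 by 0.00 ± 0.07 and Plg by 0.00 ± 0.08. Each of these SEs was 0.09 or less, before the measure of RNA quality described below was added to the fit.

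The hepatocyte-made members with the smallest p in liver were Mbl1, Klkb1, Masp1 and Cpb2. Mbl1, a mannose-binding lectin, had 11.25, 11.45 and 11.65 in TCE livers and 11.98, 11.97 and 12.08 in control livers. The groups did not overlap, and the difference was -0.56 ± 0.12 (adjusted p = 0.18). Cpb2 had 12.72, 12.69 and 12.98 in TCE livers and 13.27, 13.29 and 13.10 in control livers, again without overlap (-0.42 ± 0.11, adjusted p = 0.23). Klkb1, plasma prekallikrein, had 13.21, 13.05 and 13.05 in TCE livers and 12.75, 12.80 and 12.77 in control livers, with every TCE liver above every control liver (0.33 ± 0.07, adjusted p = 0.19). Masp1, which activates the lectin pathway, differed by 0.36 ± 0.09 (adjusted p = 0.212), but its other 2 probe sets gave -0.35 and -0.24. C1r and C1s, partner proteases of the C1 complex, followed in the order of p. C1r had 13.82, 13.97 and 14.07 in TCE livers and 13.32, 13.59 and 13.62 in control livers, without overlap (0.44 ± 0.12, adjusted p = 0.238), and C1s differed by 0.32 ± 0.09 (adjusted p = 0.25). The gap between the 3 prime and 5 prime Gapdh probe sets, a sign of RNA quality, was 1.49 ± 0.254 in TCE livers and 0.814 ± 0.0398 in control livers (SD, n = 3 each, exact permutation p = 0.1). It ran from 1.21 to 1.70 in TCE and from 0.78 to 0.86 in control livers, without overlap. A part of the gap and a part of TCE therefore cannot be told apart in liver, whatever the covariate gives. With the gap as a covariate Mbl1 gave -0.08 ± 0.20, Cpb2 0.00 ± 0.20 and Klkb1 0.15 ± 0.17, whereas C1r gave 0.70 ± 0.29, and the SEs of these genes were wider than without it. The genes with near equal levels above were also less certain with it. Fgb gave 0.39 ± 0.15, Fga 0.18 ± 0.18, Fgg 0.16 ± 0.15 and C3 0.21 ± 0.15. F2 gave 0.16 ± 0.17, F10 -0.11 ± 0.18 and Plg 0.21 ± 0.19.

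**Figure D2:**
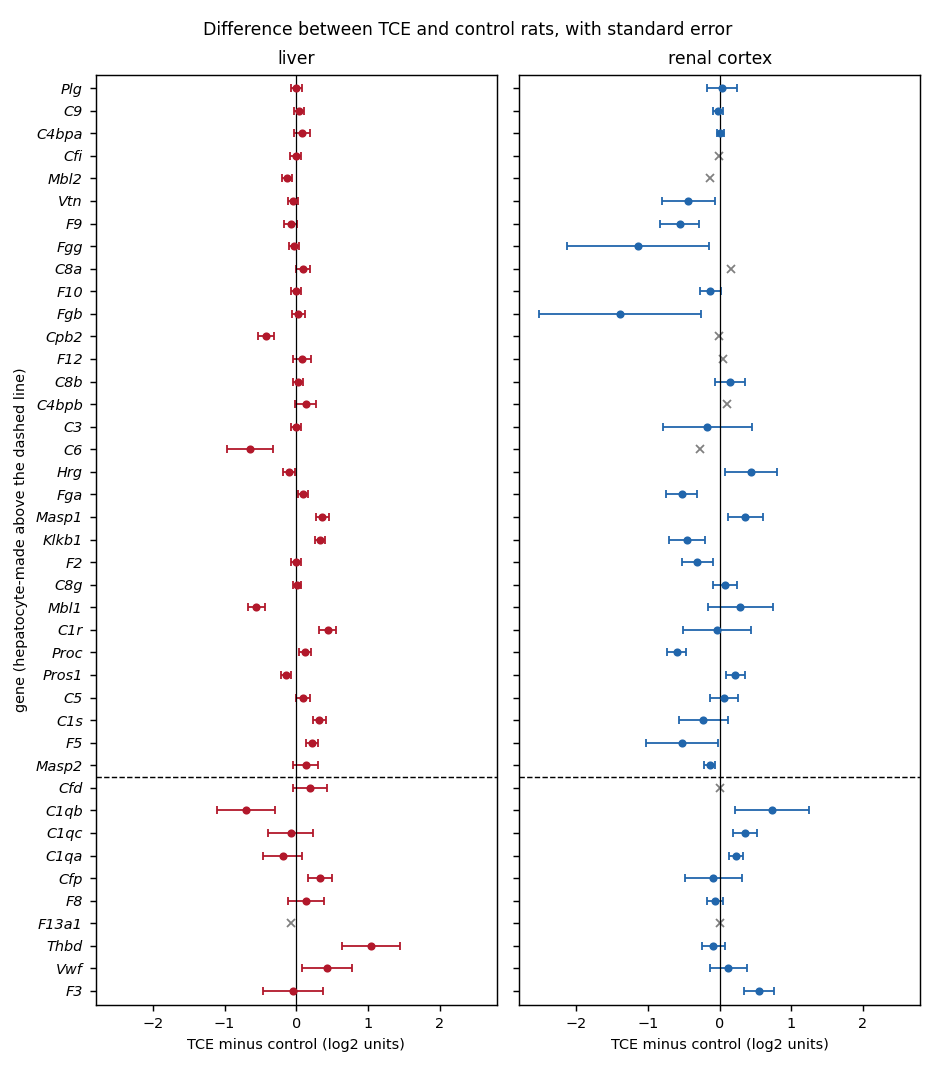
TCE minus control difference in log2 units with its limma standard error (bars) for each measured gene, in liver (left, red) and renal cortex (right, blue), in the gene order of the plot of levels. Gray crosses are genes under the filter on dim probe sets; no gene passed the adjusted threshold, the liver differences reach from Thbd at 1.04 to C1qb at -0.70, and the widest bar is Fgb in renal cortex (-1.39 ± 1.13).

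The SD was larger among TCE livers than among control livers in 6 of the 9 locally made genes tested and in 16 of the 31 hepatocyte-made genes. These shares were not compared with that of all genes and are not read as a result. Thbd had 4.64, 5.42 and 3.95 in TCE livers and 3.55, 3.37 and 3.95 in control livers, a difference of 1.04 ± 0.40 (adjusted p = 0.326), with a second probe set at 0.33. C1qb had 7.72, 9.13 and 7.80 in TCE livers and 9.07, 8.81 and 8.89 in control livers (-0.70 ± 0.40, adjusted p = 0.464). Cfp differed by 0.33 ± 0.17, with a second probe set at -0.10, and Vwf by 0.43 ± 0.35. The adjusted p was above 0.3 for every locally made gene.

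One array stood out in these genes. TCE liver replicate 2 was the highest of the 3 TCE livers in 8 of the 10 locally made genes, and in 35.5% of all genes tested. It was also the highest in 10 of 10 macrophage, 11 of 13 mesenchymal cell and 11 of 14 endothelial markers, and in 5 of 13 hepatocyte markers. The macrophage markers averaged 9.28, 10.21 and 9.41 in the TCE livers and 9.55, 9.45 and 9.77 in the control livers. Without it C1qb differed by -1.16 ± 0.11 (adjusted p = 0.284), C1qa by -0.49 ± 0.10 (adjusted p = 0.329) and C1qc by -0.42 ± 0.09 (adjusted p = 0.329), and Thbd by 0.67 ± 0.29 (adjusted p = 0.482). No member was called without it, and the part of the cell markers in these values was not tested. With the Gapdh covariate added, Thbd gave -0.34 ± 0.83 and Vwf -0.03 ± 0.92. Mesenchymal cell markers averaged 6.62 ± 0.272 in TCE livers and 6.12 ± 0.127 in control livers (SD, n = 3 each, exact permutation p = 0.1); their part in the values of Thbd and Vwf was not tested.

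**Figure D3:**
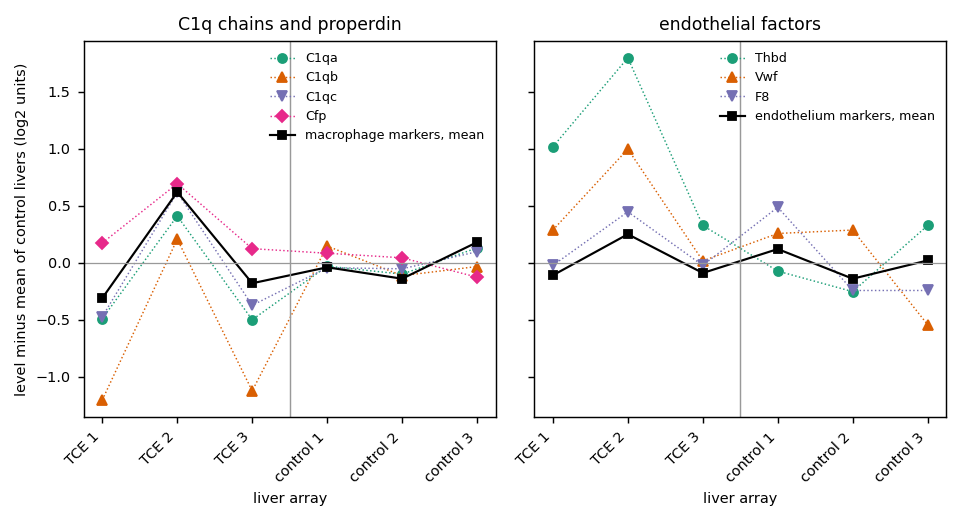
Log2 level on each liver array minus the mean of the 3 control livers, for C1q chains and properdin with the mean of the macrophage markers (left) and for endothelial factors with the mean of the endothelium markers (right). Lines join arrays only to guide the eye; TCE replicate 2 is the highest TCE liver in every series shown, and C1qb lies below the control livers on TCE replicates 1 and 3.

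In the pathways around the members, 0 of 21 other coagulation genes and 0 of 13 other complement genes were called in liver. Those with the smallest p included the enzymes that keep vitamin K in use for the carboxylation of factors II, VII, IX and X. Vkorc1, which recycles vitamin K, had 12.95, 12.98 and 13.06 in TCE livers and 13.46, 13.45 and 13.40 in control livers, without overlap (-0.44 ± 0.06, adjusted p = 0.126). Ggcx, the carboxylase itself, had 10.42, 10.66 and 10.67 in TCE livers and 11.09, 10.93 and 11.07 in control livers (-0.44 ± 0.10, adjusted p = 0.191). Mcfd2, a cargo receptor for factors V and VIII, differed by -0.36 ± 0.07 (adjusted p = 0.151) and Asgr2, a subunit of the receptor that clears desialylated glycoproteins, by -0.60 ± 0.10 (adjusted p = 0.138). Colec11 differed by 0.38 ± 0.06 (adjusted p = 0.14). With the Gapdh covariate added, Vkorc1 gave -0.28 ± 0.14, Ggcx -0.17 ± 0.23, Mcfd2 -0.19 ± 0.15, Asgr2 -0.23 ± 0.20 and Colec11 0.31 ± 0.17. Of the 15 acute phase genes tested in liver 0 were called, and the smallest p belonged to Crp, C-reactive protein, at -0.61 ± 0.14 (adjusted p = 0.212); of 11 liver transcription factors 0 were called, with Hnf4a at 0.40 ± 0.12 (adjusted p = 0.266). The same covariate gave 0.02 ± 0.22 for Crp and -0.03 ± 0.23 for Hnf4a.

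In renal cortex 32 members passed the filter on dim probe sets, 24 hepatocyte-made and 8 locally made, and 0 were called, beside 0% higher and 0% lower of 10563 genes. C4bpb, C6, C8a, Cfi, Mbl2, F12, Cpb2, Cfd and F13a1 lay under the filter there. The median difference was -0.14 over the hepatocyte-made genes and 0.17 over the locally made ones, beside 0.00 for all genes. Without control replicate 2 the hepatocyte-made median was 0, with 12 genes higher and 12 lower of 25 tested. An unadjusted p under 0.05 was found in 2 of 32 members, beside 14.8% of all genes, and 2 did not overlap between the groups, beside 20.1%.

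Protein C had the smallest p. Proc had 8.80, 9.12 and 9.19 in TCE renal cortex and 9.73, 9.68 and 9.51 in control renal cortex. Every TCE value lay below every control value, and the difference was -0.60 ± 0.13 (adjusted p = 0.22). Thbd, which presents protein C to thrombin, differed by -0.09 ± 0.16, and Pros1, the cofactor of activated protein C, by 0.22 ± 0.13. F3 had 9.45, 9.06 and 9.37 in TCE renal cortex and 8.48, 9.14 and 8.59 in control renal cortex, where the groups overlapped (0.55 ± 0.21, adjusted p = 0.318). Of 7 podocyte markers 6 were higher in TCE renal cortex, 4 with an unadjusted p under 0.05, beside 14.8% of all genes, and 0 were called. Their mean was 8.43 ± 0.0984 in TCE and 7.96 ± 0.0499 in control renal cortex (SD, n = 3 each, exact permutation p = 0.1). On control replicate 2, where F3 was 9.14, they averaged 7.98, beside 7.90 and 7.99 on the other control arrays. Proximal tubule markers averaged 13.15, 13.09 and 13.11 in TCE and 12.76, 13.28 and 12.74 in control renal cortex. The summed level of the podocyte markers, on the log2 scale, ran from 12.36 to 12.42 in TCE and from 12.12 to 12.24 in control renal cortex. The part of either list in the value of F3 was not tested. Klkb1 differed by -0.46 ± 0.25 (adjusted p = 0.441). The Gapdh gap was 0.655 ± 0.189 in TCE and 0.971 ± 0.11 in control renal cortex (SD, n = 3 each, exact permutation p = 0.2), and with it as a covariate Proc gave -0.59 ± 0.22, F3 0.07 ± 0.22 and Klkb1 -0.01 ± 0.35.

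The C1q chains had higher means in TCE renal cortex, and none passed the test. C1qa had 7.70, 7.79 and 7.99 in TCE renal cortex and 7.58, 7.69 and 7.52 in control renal cortex. The lowest TCE value, 7.70, lay just above the highest control value, 7.69 (0.23 ± 0.10, adjusted p = 0.352). C1qc differed by 0.35 ± 0.17 (adjusted p = 0.4) and C1qb by 0.73 ± 0.52 (adjusted p = 0.537). Without control replicate 2 the differences of C1qa, C1qc and C1qb were 0.28, 0.53 and 1.30, with adjusted p of 0.328, 0.199 and 0.202, and with the covariate and all arrays they were 0.09, 0.06 and -0.27. Macrophage markers averaged 5.71 ± 0.138 in TCE and 5.58 ± 0.0536 in control renal cortex (SD, n = 3 each, exact permutation p = 0.3), and their part in the C1q values was not tested.

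The fibrinogen chains showed wide differences in renal cortex that rested on 1 array. Fgb had 3.90, 2.31 and 2.51 in TCE renal cortex and 3.64, 6.67 and 2.56 in control renal cortex, and Fgg had 3.51, 2.17 and 2.35 against 3.39, 5.89 and 2.17. Control replicate 2 stood above all other renal cortex arrays in both genes, and the differences were -1.39 ± 1.13 (adjusted p = 0.587) and -1.14 ± 0.99 (adjusted p = 0.613). Without that array they were -0.20 ± 0.63 and -0.11 ± 0.58. Other hepatocyte-made genes moved with it. Vtn differed by -0.44 ± 0.37 with the array and 0.00 ± 0.06 without it, and C3 by -0.17 ± 0.62 with it and 0.47 ± 0.37 without it. F9 (factor IX), near the lowest values in TCE renal cortex, differed by -0.56 ± 0.27 (adjusted p = 0.398) with the array and -0.29 ± 0.17 without it. Fga differed by -0.53 ± 0.22 (adjusted p = 0.354) with it and -0.33 ± 0.18 without it. With all arrays kept and the Gapdh covariate added, Fga gave -0.99 ± 0.28. The value of Proc without the array was -0.58 ± 0.15 (adjusted p = 0.262). The liver minus renal cortex difference of Fgb in control rats was 12.28 ± 0.33 without the array and 11.09 ± 1.03 with it, and that of Fgg 12.54 ± 0.38 without it and 11.51 ± 0.92 with it.

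The same array carried the most signal of hepatocyte markers. Alb, albumin, had 10.96, 4.36 and 6.31 in TCE renal cortex and 9.89, 12.80 and 7.84 in control renal cortex, and the 6 arrays took the same order for Alb as for Fgb. The hepatocyte markers averaged 5.29, 4.29 and 4.38 in TCE renal cortex and 5.19, 6.86 and 4.54 in control renal cortex, and 10 of the 11 tested were lower in TCE renal cortex (exact permutation p = 0.3 for the mean of the list, n = 3 each). Their summed level, on the log2 scale, ran from 12.61 to 13.10 in TCE and from 11.72 to 13.66 in control renal cortex. Much of that sum was Cyp2e1, which had 12.63, 12.50 and 12.69 in TCE and 11.81, 12.16 and 11.40 in control renal cortex. Control replicate 2 was the highest control array in 20 of the 31 hepatocyte-made members and 10 of 13 hepatocyte markers, but also in 7 of 10 proximal tubule markers, 6 of 10 locally made members and 4 of 7 podocyte markers, beside 33.2% of all genes. Their part in the values of the fibrinogen chains was not tested.

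**Figure D4:**
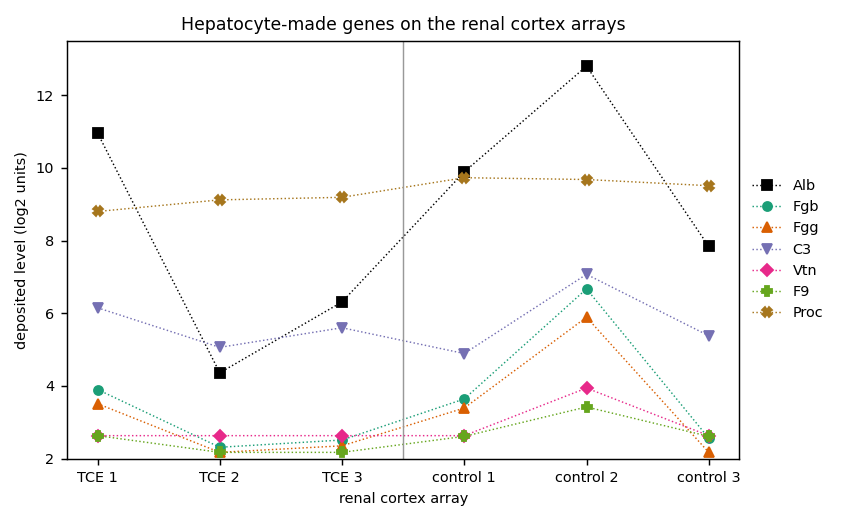
Deposited log2 level of albumin (Alb, black) and of 6 hepatocyte-made factors on the 3 TCE and the 3 control renal cortex arrays; dotted lines only guide the eye. Fgb (2.31 to 6.67) and Fgg (2.17 to 5.89) peak with Alb on control replicate 2, whereas Proc is lower on all 3 TCE arrays than on the control arrays.

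Other coagulation and complement genes in renal cortex had 0 of 20 and 0 of 11 called. Klk1, a kidney kallikrein, had 12.64, 12.46 and 12.23 in TCE renal cortex and 11.40, 11.83 and 11.66 in control renal cortex, without overlap (0.81 ± 0.15, adjusted p = 0.21). Plat, the tissue activator of plasminogen, had 10.41, 10.09 and 10.39 in TCE and 9.81, 9.89 and 10.00 in control renal cortex (0.40 ± 0.11, adjusted p = 0.26). Cd93, a receptor first linked to C1q, differed by -0.56 ± 0.14 (adjusted p = 0.254).

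The last comparison asked whether the TCE difference in liver differed from that in renal cortex. None of 40 members was called, where 0.188% of 10652 genes were called with a higher and 0.347% with a lower liver difference. Of the 40 members 6 had an unadjusted p under 0.05, beside 17.5% of all genes. Proc came nearest, at 0.12 ± 0.08 in liver and -0.60 ± 0.13 in renal cortex, a difference of 0.73 ± 0.16 (adjusted p = 0.0832). With each of the 12 arrays left out in turn its adjusted p stayed above the threshold, at 0.0672 to 0.169. Without control renal cortex replicate 2, 1 member was called, Hrg, at -0.96 ± 0.13 (adjusted p = 0.0297), against -0.54 ± 0.38 (adjusted p = 0.484) with all arrays. Hrg had 7.21 and 7.15 on the control renal cortex arrays left and 8.41 on the one left out. Over all genes, 0 to 108 were called with each array left out in turn, so this 1 call is not read as a result. Klkb1, with 0.33 ± 0.07 in liver and -0.46 ± 0.25 in renal cortex, differed by 0.79 ± 0.27 (adjusted p = 0.191), Cpb2 by -0.41 ± 0.13 (adjusted p = 0.159) and Thbd by 1.14 ± 0.44 (adjusted p = 0.232). With the Gapdh covariate added, Proc gave 0.51 ± 0.33, Klkb1 0.04 ± 0.52, Cpb2 -0.08 ± 0.24 and Thbd 0.07 ± 0.87.

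Among 21 other coagulation genes 1 was called in that comparison, Vkorc1. Its level did not overlap between TCE and control livers, whereas in renal cortex it had 11.52, 11.52 and 11.59 in TCE and 11.34, 11.53 and 11.37 in control rats. The difference of the differences was -0.57 ± 0.11 (adjusted p = 0.0497). With each of the 12 arrays left out in turn it stayed between -0.63 and -0.54, but the adjusted p reached from 0.0362 to 0.121 and passed the threshold in 2 of 12. With the Gapdh covariate added, it was -0.29 ± 0.20 (adjusted p = 0.959), and the call was lost. Mcfd2 differed by -0.49 ± 0.12 (adjusted p = 0.104), and by -0.29 ± 0.24 with that covariate. Of 12 other complement genes 0 were called.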

How the data were processed

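RNA of liver and renal cortex from 6 rats was hybridised to rat GeneChip arrays, 12 in all, per the labels' protocols. The authors deposited log2 values for every probe set, a scale inferred from their range. They used affy and limma, per the submitters' processing notes, and the versions, the normalization and the summary method are not given. Between 27.5% and 29.1% of probe sets sat at the shared lowest value on each array, so folds against dim groups are lower bounds.

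Probe sets were named from the platform annotation. Of 31099, 20826 had 1 symbol (14217 genes), 436 several and 9780 none, and 57 were controls. A gene was its singly named probe set with the highest mean over the 12 arrays, and 9 members had several. All 41 member symbols matched RefSeq of GRCr8. Each comparison used limma 3.58.1 in R 4.3.3 (lmFit, eBayes, two-sided) on the 2 groups, or on 4 group means for the difference of effects. Genes were tested if their mean lay above the 40th percentile over probe sets (2.55, 2.54, 2.45, 2.43 and 2.55 log2 units, in the order of the report). P-values were adjusted by Benjamini-Hochberg over all genes tested, with a threshold of 0.05, and ± after a difference is the moderated SE. A group mean under that percentile was called near the lowest values, and the fold was taken from the percentile ("at least"). The code was tested on simulated data.

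Members and lists were chosen with earlier results of these data known. The text names, between tissues and in each class, the 6 members with the largest called difference, every hepatocyte-made member not called higher in liver, every locally made member and every member under the filter; for TCE, the 4 with the smallest p in each tissue and class; for the difference of effects, the 4 members of smallest p; and no more than 4 genes of any other list. Members named besides these, such as the least different and the abundant ones, were chosen after their values were seen. Rats of a group are separate animals. Between liver and renal cortex arrays of equal replicate number, deviations from group means correlated over genes at -0.01 to 0.06 in TCE and 0.05 to 0.08 in control rats. Unequal numbers gave -0.07 to 0.05 in TCE and -0.06 to -0.01 in control rats. These values do not settle whether equal numbers mark the same rat. Arrays were not paired, although each rat gave both tissues, so the fits over both tissues leave shared rats out of account. The alternatives were another filter, scaling, probe set choice, variance model, array weights, a replicate block, 1 fit over all arrays, other thresholds, the Gapdh gap as a covariate and each array left out.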

Additional observations from a re-analysis of the deposited data

How the results depend on the processing

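With 3 arrays a group the differences between TCE and control rats limit what can be called, and dim signal limits folds between tissues. The counts of hepatocyte-made members higher in liver ran from 30 to 31 in control rats over the 18 settings tried. The 1 hepatocyte-made member called lower in liver of control rats (Masp2) became 0 with all probe sets of a gene averaged, after centring the arrays, with the Gapdh gap as a covariate and with a 1.5-fold minimum. Masp2 changed sign with the mean of its probe sets, to 6.40 in control and 6.10 in TCE rats, and in TCE rats after centring, to 0.22, and without liver TCE replicate 3, to 0.02. The mean of its probe sets turned Masp1 in liver to -0.07, and the Gapdh covariate turned Thbd in liver to -0.34, Vwf in liver to -0.03 and C1qb in renal cortex to -0.27; the cause was not tested. In liver 1 member (Cpb2) was called with all 12 arrays in 1 fit. Over all genes, TCE calls in liver became 17 with no filter and 182 in the fit of all 12 arrays, and ran from 0 to 1 with each array left out. In renal cortex they became 2 with no filter, 1 with a filter at the 60th percentile, 1 with variances fitted with trend and robust, and 20 in the fit of all 12 arrays. For the difference of effects, 1 member (Proc) was called with trend and robust variances and at a threshold of 0.1, and 0 to 1 with each array left out, the 1 being Hrg without kidney control replicate 2. The 57 genes called there became 123 with array weights, 9 with the replicate block, 0 with the Gapdh covariate and 190 at a threshold of 0.1, and ran from 0 (without kidney TCE replicate 1) to 108 (without kidney TCE replicate 2) with each array left out. The replicate block changed no other count by over 1.5 times, and whether equal numbers mark the same rat is not known.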
